A study of Homo sapiens with 11 samples.

Results

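Translation initiation and elongation factors are described here through 44 genes, chosen by symbol from a list: 39 for initiation factors, their inhibitors and close relatives, and 5 for the elongation factors eEF1 and eEF2. Each symbol occurred once in the deposited table of 45965 genes, and all 44 were among the 16324 genes that passed the filter on low counts. The cells were H1299, a human non-small cell lung carcinoma line without p53 of its own, stably transfected with mutant p53. The mutant carried either of a pair of hotspot substitutions in the DNA-binding domain, R175H or R273H. Each was made on a p53 with proline (P72) or arginine (R72) at codon 72, a common polymorphism.

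Sequencing of 3′ ends of mRNA (Lexogen QuantSeq, 75 bp single reads) gave 11 libraries in 4 groups. The group R175H P72 had 3 libraries, all in batch b2, and R175H R72 had 3, of which replicate 1 was in batch b1. The group R273H P72 had 4 libraries, of which replicate 1 was in b2 and the other 3 were in b1. The group R273H R72 had a single library, in b2. Every group carried a transfected mutant p53 and went through the same transfection with 5 µg of DNA and 14 days of neomycin at 800 µg per ml, so no comparison here is against cells without p53. Whether each line was a pool or a clone, whether replicates came from separate cultures, and what the batches are is left unsaid in the labels. The p-values therefore measure the spread between these libraries, which may be technical.

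Cap-dependent translation starts when eIF4F, made of the cap-binding protein eIF4E, the scaffold eIF4G and the helicase eIF4A, loads an mRNA onto a small ribosomal subunit that carries eIF1, eIF1A, eIF3, eIF5 and the ternary complex of eIF2, GTP and initiator tRNA. eIF2B recharges eIF2 with GTP, and stress kinases slow initiation by phosphorylating eIF2. The 4E-BPs hold eIF4E away from eIF4G until mTOR phosphorylates them. eEF1A then brings aminoacyl-tRNA to the ribosome and eEF2 moves the ribosome along the mRNA. The mRNAs of several of these factors begin with a C followed by a run of pyrimidines, a 5′ terminal oligopyrimidine (TOP) tract through which mTOR and LARP1 control their translation.

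Start sites of 36 of the 44 genes were read from RefSeq windows (GRCh38.p14) that run from 250 bases before to 50 bases after each annotated start. A tract was counted where a start fell on a C followed by at least 4 bases that were each C or T, on the gene's strand. By this rule 10 of the 36 genes (27.8%) had a tract at an annotated start, against 5.14% of the 27305 genes with a window. The 10 were EEF1A1, EEF1B2, EEF2, EIF2S3, EIF3D, EIF3F, EIF3K, EIF3M, EIF4A2 and EIF4B. The following lines give 15 bases before the start and 15 from it onwards, with the tract in capitals. They show the 4 tract genes that differed between groups, then EEF1A1, a classical TOP mRNA, and then EIF1, which differed between groups and has no tract at its start.
EEF2: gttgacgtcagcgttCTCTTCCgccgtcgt
EIF2S3: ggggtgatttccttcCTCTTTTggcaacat
EIF3D: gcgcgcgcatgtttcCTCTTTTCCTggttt
EIF4B: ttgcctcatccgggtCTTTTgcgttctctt
EEF1A1: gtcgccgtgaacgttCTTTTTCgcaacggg
EIF1: aggcaccgcccctctgccccagtcactgag
These lie at chr19:3985449-3985478 (minus strand), chrX:24054941-24054970 (plus strand), chr22:36529152-36529181 (minus strand), chr12:53006441-53006470 (plus strand), chr6:73521018-73521047 (minus strand) and chr17:41688870-41688899 (plus strand), in that order. Each covers the end of the promoter and the first bases of the annotated 5′ exon, and which start these cells use was not measured. The E-box CACGTG, the same on both strands, was in the windows of 9 of the 36 genes (25%), against 8.77% of all genes with a window. The 9 were EIF1B, EIF2B3, EIF3F, EIF3K, EIF4A3, EIF4B, EIF4E, EIF4G1 and EIF4H. The 8 genes not in the table were EIF2S2, EIF3A, EIF3E, EIF3G, EIF3H, EIF3L, EIF4EBP1 and EEF1D.

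Library totals were 8346926 to 12829560 counts, and 19540 to 20489 genes had a count. Levels are given as CPM (scaled counts per 1e6). The keratins KRT8 (241 to 300 CPM) and KRT18 (656 to 1043 CPM) and vimentin (VIM, 755 to 1827 CPM) were expressed in every library, while KRT19, EPCAM and CDH1 were under 1 CPM. The 5 leukocyte markers summed to 0.237 to 5.23 CPM, the 5 fibroblast markers to 1.79 to 6.57 CPM, the 3 endothelial markers to 0.403 to 1.48 CPM and the 4 alveolar markers to 0.475 to 2.33 CPM. CD3E, COL1A2, LUM, CDH5 and SFTPC were at 0 in all libraries.

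As a share of all counts, the 44 genes were highest in R175H P72. They took 2.86%, 3.03% and 3.16% of counts in its 3 libraries, 2.52%, 2.57% and 2.70% in R175H R72, 2.65%, 2.30%, 2.37% and 2.52% in R273H P72, and 2.54% in R273H R72. The 3 R175H P72 libraries did not overlap with the other 8. The share without EEF1A1, the gene for the tRNA carrier eEF1A, was 1.83% to 1.94% in R175H P72 and 1.61% to 1.78% in the others. EEF1A1 alone took 1.01% to 1.33% of counts in R175H P72, all in batch b2, and 0.580% to 1.00% elsewhere. Outside R175H P72 it took 0.580% to 0.814% in the 4 libraries of b1 and 0.918% to 1.00% in those of b2. In 6 genes, EIF1, EIF1B, EIF3F, EIF3G, EIF5A and EEF1A1, all 3 R175H P72 libraries were above all 8 others, and in 0 of the 44 were all 3 below. Over all genes tested 2.76% had all 3 above and 3.2% all 3 below. For EIF1B and EEF1A1 the margin was small. EIF1B was at 54.5 CPM in R175H P72 replicate 2 and 54.3 CPM in R175H R72 replicate 2. EEF1A1 was at 10238 CPM in R175H P72 replicate 1 and 10039 CPM in R175H R72 replicate 4. In bulk RNA these shares are relative to the other transcripts, and fewer cells of a type cannot be told apart from less of an mRNA per cell.

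**Figure D1:**
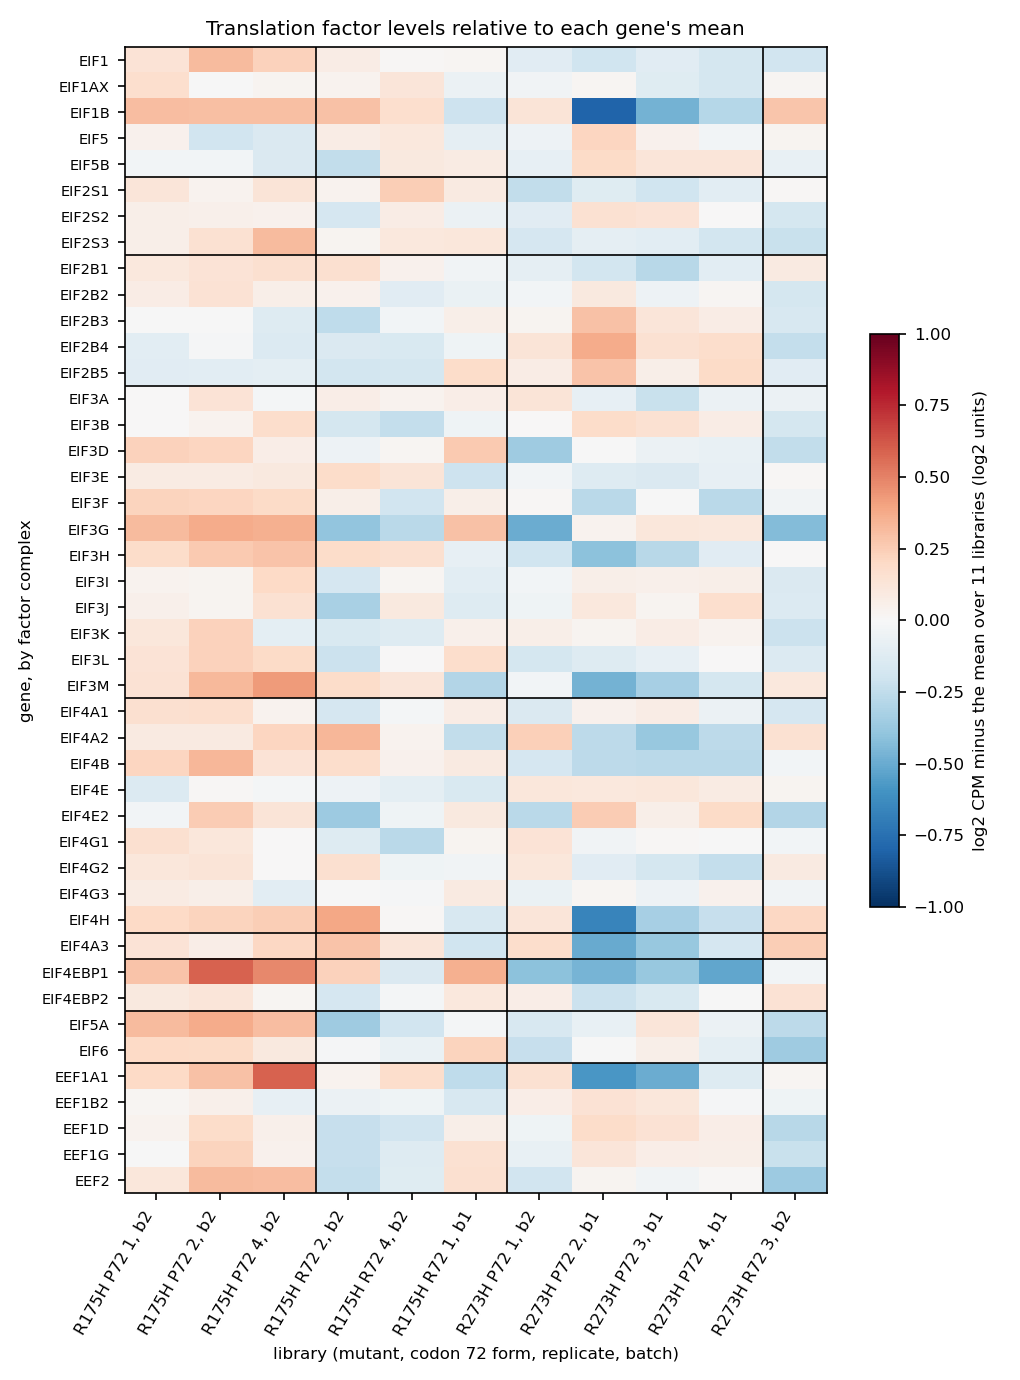
Levels of the 44 genes (rows, grouped by factor complex) in the 11 libraries (columns, grouped by mutant and codon 72 form, with the batch), as log2 CPM minus the gene's mean over the libraries. The R175H P72 columns are above the mean for most genes, and EIF4EBP1 is below it in all 4 R273H P72 libraries.

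The effect of the codon 72 form on R175H was read from R175H R72 against R175H P72, with batch in the model. EIF3G, EIF5A and EEF2 were lower with R72 and no factor gene was higher, by edgeR's quasi-likelihood test at a Benjamini-Hochberg adjusted p under 0.05 over all genes tested. That is 3 of 44 lower (6.82%), where 0.815% of all genes tested and 1.34% of those with a mean of at least 10 CPM were lower. Over all genes tested 0.319% were higher, and 1.13% were called in either direction. The log2 fold changes of the 44 had a median of -0.12 and ran from -0.67 to 0.13, and 36 were negative, while the median over all genes tested was -0.00093. In all, 15 of the 44 had an unadjusted p under 0.05, as did 13.6% of all genes tested.

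EIF3G encodes a small RNA-binding subunit of eIF3, on chromosome 19 between 10115017 and 10119918 (hg38). It was at 200.4, 209.2 and 206.6 CPM in R175H P72 and at 197.7, 122.7 and 133.8 CPM in R175H R72 replicates 1, 2 and 4. The R175H R72 library in batch b1 lay just under the P72 libraries, and the 2 in b2 were far lower. With batch in the model the log2 fold change was -0.67 (SE 0.08, edgeR adjusted p = 0.000106), a level 1.59-fold lower, and in batch b2 alone it was -0.68 (adjusted p = 0.00087). Without a batch term it was -0.44 and was no longer called (adjusted p = 0.602).

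EIF5A encodes the hypusine-bearing factor that relieves stalled ribosomes during elongation and helps termination (chromosome 17, 7306999 to 7312463). It was at 329.2, 342.5 and 327.8 CPM in R175H P72 and at 260.8, 206.3 and 232.1 CPM in R175H R72 replicates 1, 2 and 4. All 3 R72 libraries, in both batches, were under all 3 P72 libraries. This gave a log2 fold change of -0.59 (SE 0.09, edgeR adjusted p = 0.000797), and without a batch term it was -0.52 with an adjusted p of 0.140. The near-identical retrocopy EIF5AL1 held 16.2% of the summed counts of the pair, and the sum gave a log2 fold change of -0.49 (adjusted p = 0.0029).

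EEF2, the gene for the translocase of elongation (chromosome 19, 3976056 to 3985469), was at 2244, 2586 and 2578 CPM in R175H P72 and at 2326, 1760 and 1908 CPM in R175H R72 replicates 1, 2 and 4. The groups overlapped, since the b1 library of R175H R72 exceeded replicate 1 of R175H P72. With batch in the model the difference was -0.40 on the log2 scale (SE 0.09, edgeR adjusted p = 0.0243). This call was lost without R175H P72 replicate 2, without R175H P72 replicate 4 and without R175H R72 replicate 2, and also without a batch term, in batch b2 alone and after a correction for GC content.

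By complex, the 12 eIF3 genes on the list, which leaves out EIF3C, had 1 called (8.33%). Over all genes tested 1.13% were called, and 1 gene in so short a list says little about the complex. The 12 had a median log2 fold change of -0.19 and 10 negative values, with 50.1% negative over all genes tested. EIF3B (-0.27, SE 0.08, edgeR adjusted p = 0.110) and EIF3L (-0.26, SE 0.09, adjusted p = 0.154) came next after EIF3G. The 5 eEF1 and eEF2 genes were all negative, with EEF1D at -0.28 and EEF1G at -0.24 on the log2 scale, both subunits of the exchange factor that recycles eEF1A, and EEF1A1 at -0.23. None of these 3 passed the test. The 9 genes of eIF4F, its helpers and its relatives had 0 called and a median of -0.04. Among them EIF4E2, a cap-binding relative of eIF4E, was at -0.34 (edgeR adjusted p = 0.106). The 5 start codon and subunit joining genes, the 3 eIF2 genes and the 5 eIF2B genes had 0 called, with medians of -0.02, -0.11 and -0.07. EIF4EBP1 was at -0.34 (SE 0.12, adjusted p = 0.177) with an interval of -0.57 to -0.11.

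The effect of the hotspot was read from R273H P72 against R175H P72. EIF4EBP1, EIF3G, EIF5A, EIF3D, EEF2, EIF4B, EIF3L, EIF6, EIF3H, EIF1 and EIF2S3 were lower with R273H, 11 genes in all, and 0 were higher by edgeR's test. That is 25% of the 44, where 14.6% of all genes tested were called in either direction, 6.95% higher and 7.6% lower, and 12.6% of those with a mean of at least 10 CPM were lower. The 44 log2 fold changes had a median of -0.15, ran from -0.99 to 0.21 and were negative for 36 genes, with a median of 0.0030 over all genes tested. This comparison shares its 3 R175H P72 libraries with the codon 72 comparison on R175H, so values in both move with those libraries. The batches are split unevenly, with 3 of 4 R273H P72 libraries in b1 and no R175H P72 library there, so in batch b2 alone R273H P72 is the single library replicate 1.

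**Figure D2:**
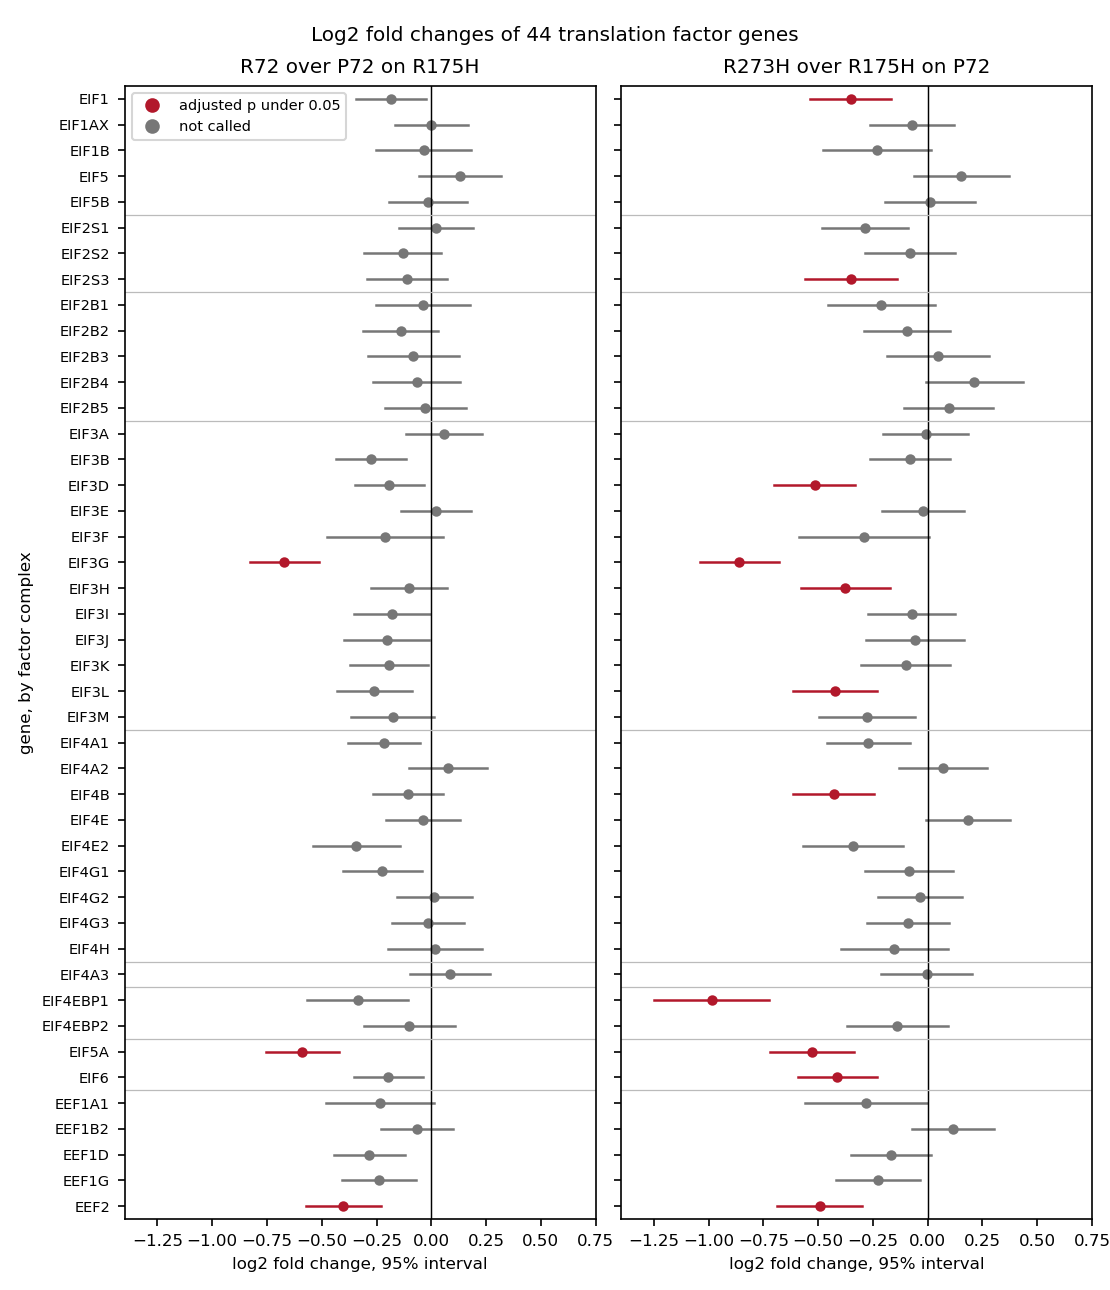
Log2 fold changes (x axis) of the 44 genes (rows, by complex) for R72 over P72 on R175H (left) and R273H over R175H on P72 (right), with bars for the 95% interval and red for an adjusted p under 0.05. The 3 red points on the left and the 11 on the right all lie below 0.

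EIF4EBP1, the gene for the eIF4E inhibitor 4E-BP1, differed most in fold. It was at 51.3, 63.4 and 58.7 CPM in R175H P72 and at 31.7, 30.5, 32.4 and 29.4 CPM in R273H P72 replicates 1 to 4. All 4 R273H libraries, in both batches, were under all 3 R175H libraries. The log2 fold change was -0.99 (SE 0.13, edgeR adjusted p = 8.37e-05), a level 1.98-fold lower. It was called under every alternative tried, with log2 fold changes from -0.84 to -0.99 over the changes of model and from -0.87 to -1.21 with single libraries left out. Its paralog EIF4EBP2 was at -0.14 (SE 0.12, adjusted p = 0.481), with an interval of -0.37 to 0.09.

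Among the 12 eIF3 genes 4 were lower (33.3%) and 0 were higher, where 7.6% of all genes tested were lower. Of those with a mean of at least 10 CPM 12.6% were lower. All 12 log2 fold changes were negative, with a median of -0.19, against 49.7% negative over all genes tested. EIF3G was at 114.5 CPM in R273H P72 replicate 1 and at 165.2, 174.6 and 173.4 CPM in replicates 2 to 4, against 200.4 to 209.2 CPM in R175H P72. The b2 library was the low one, and all 4 were under the R175H P72 libraries. The log2 fold change was -0.86 (SE 0.09, edgeR adjusted p = 1.36e-05) and in batch b2 alone -0.84 (adjusted p = 0.0026). Without a batch term it was -0.39 (adjusted p = 0.149).

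EIF3D, the eIF3 subunit that can itself bind the cap of some mRNAs, was at 715.3, 706.5 and 638.9 CPM in R175H P72 and at 475.9, 609.5, 586.3 and 578.8 CPM in R273H P72. The groups did not overlap, and the b2 library was again the lowest. The log2 fold change was -0.52 (SE 0.09, edgeR adjusted p = 0.000846) and -0.29 without a batch term (adjusted p = 0.0687). EIF3L, which pairs with EIF3K at the edge of the complex, was at 266.9, 284.0 and 277.1 CPM against 215.0, 221.0, 228.5 and 242.6 CPM, with a log2 fold change of -0.42 (SE 0.10, adjusted p = 0.00552). Its exons share 1767 nt with an overlapping transcript on the same strand and 460 nt with ANKRD54 on the other. It was not called without R175H R72 replicate 1, without a batch term or in batch b2 alone.

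EIF3H, a subunit of the complex's MPN-domain pair, was at 170.9, 180.8 and 183.6 CPM in R175H P72 and at 131.2, 113.6, 124.3 and 139.0 CPM in R273H P72. No library of either group reached the other group. In log2 terms the change was -0.38 (SE 0.10, edgeR adjusted p = 0.0170), and it was not called without R273H P72 replicate 1, the b2 library. EIF3M (-0.28), EIF3F (-0.29) and the other 6 eIF3 genes did not pass, and the scaffold EIF3A was at -0.01 with an interval of -0.20 to 0.19. Neighbouring genes on the other strand overlap EIF3G (P2RY11, 113 nt, 631 counts in all against 18086) and EIF3H (UTP23, 110 nt). No label says whether reads were counted by strand.

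EIF5A was at 236.3, 251.1, 287.5 and 254.5 CPM in R273H P72 replicates 1 to 4, all under the 327.8 to 342.5 CPM of R175H P72. The log2 fold change was -0.53 (SE 0.10, edgeR adjusted p = 0.000993), and it was called under every alternative tried. GPS2 overlaps EIF5A by 241 nt on the other strand and had 3383 counts in all, against 29607 for EIF5A. EIF6, which keeps the large ribosomal subunit from joining too early, was at 699.2, 692.9 and 651.5 CPM against 517.2, 605.4, 632.8 and 569.5 CPM. Its log2 fold change was -0.41 (SE 0.09, adjusted p = 0.00437), and the call was lost without R273H P72 replicate 1, without a batch term, in batch b2 alone and with the replicate block and GC correction together.

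EEF2 was at 1821, 2121, 2025 and 2098 CPM in R273H P72, all under the lowest R175H P72 library at 2244 CPM. The fitted difference was -0.49 on the log2 scale (SE 0.10, edgeR adjusted p = 0.00196). It was -0.29 without a batch term (adjusted p = 0.0677) and -0.44 in batch b2 alone (adjusted p = 0.0623). The eEF1 genes did not pass: EEF1A1 was at -0.28 (SE 0.14), EEF1G at -0.23, EEF1D at -0.17 and EEF1B2 at 0.12 on the log2 scale.

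**Figure D3:**
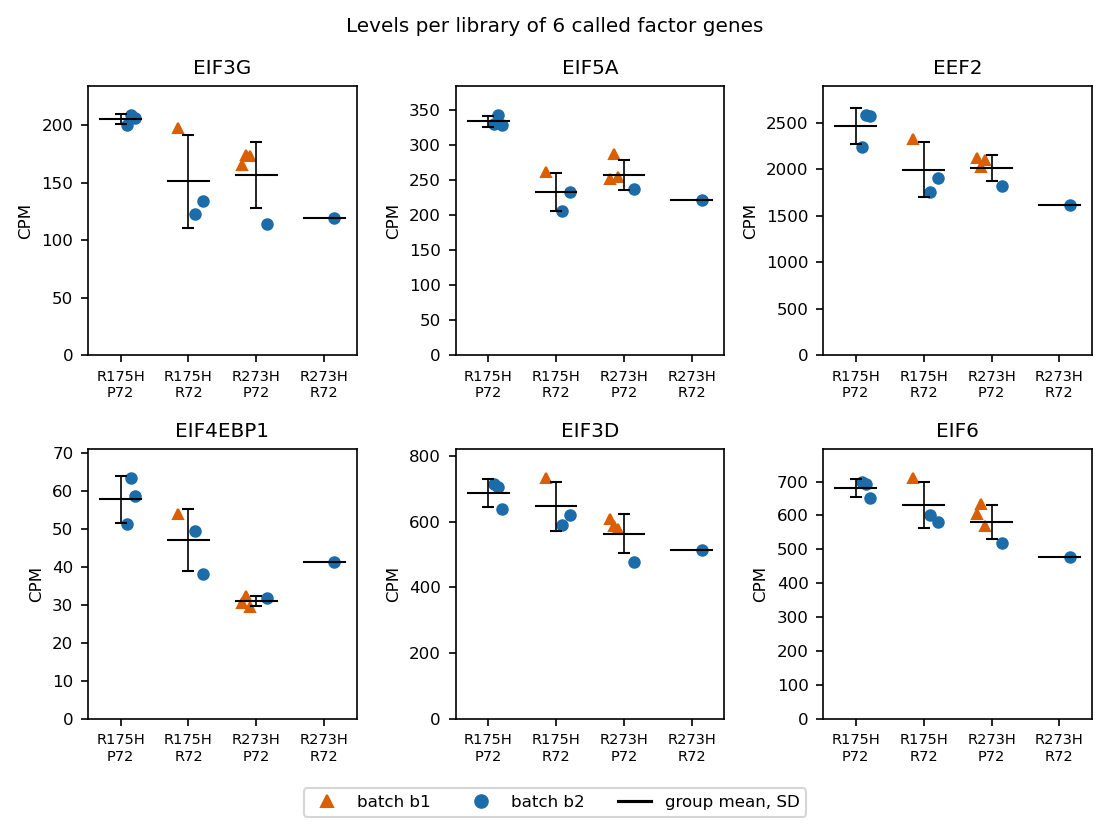
CPM (y axis, from 0) of 6 called genes in each library of the 4 groups (x axis), with triangles for batch b1, circles for b2, and lines for the group mean and SD. EIF4EBP1 is lowest in R273H P72 in both batches, while EIF3G is higher in b1 than in b2 within R175H R72 and R273H P72.

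In the eIF4F group EIF4B, which stimulates the helicase eIF4A, was the only 1 of 9 called. It was at 406.9, 439.5 and 385.7 CPM in R175H P72 and at 310.9, 291.3, 290.5 and 290.6 CPM in R273H P72. The groups did not overlap, and the log2 fold change was -0.43 (SE 0.09, edgeR adjusted p = 0.00379), with the call lost in batch b2 alone (adjusted p = 0.0701). EIF4E2 (-0.34, adjusted p = 0.0527) and the helicase EIF4A1 (-0.27, adjusted p = 0.0642) narrowly missed the threshold. The cap-binding EIF4E was at 0.18 (interval -0.01 to 0.37). The scaffold genes EIF4G1 and EIF4G3 were at -0.09 and -0.09 on the log2 scale, and their relative EIF4G2 was at -0.03. EIF4A2 (0.07), EIF4H (-0.15) and EIF4A3 of the exon junction complex (-0.0045) did not pass either.

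EIF1, which guards start codon choice, was at 843.1, 953.5 and 901.1 CPM in R175H P72 and at 709.0, 667.2, 709.0 and 678.0 CPM in R273H P72. The groups did not overlap, and the log2 fold change was -0.35 (SE 0.09, edgeR adjusted p = 0.0135). The call was lost without R175H P72 replicate 2, without R175H R72 replicate 1, without R273H P72 replicate 1 and in batch b2 alone. Its paralog EIF1B was at -0.23 (adjusted p = 0.238), EIF1AX at -0.07, the GTPase-activating factor EIF5 at 0.15 and the subunit-joining GTPase EIF5B at 0.01.

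EIF2S3, the GTP- and tRNA-binding gamma subunit of eIF2, was at 56.7, 60.5 and 67.7 CPM in R175H P72 and at 48.5, 51.3, 50.6 and 48.0 CPM in R273H P72. All 4 R273H libraries were under the 3 R175H libraries. The log2 fold change was -0.35 (SE 0.11, edgeR adjusted p = 0.0301), and the call was lost in 4 of the 11 fits with a library left out (R175H P72 replicates 2 and 4, R175H R72 replicate 1, R273H P72 replicate 1) and in batch b2 alone. EIF2S1, the subunit that stress kinases phosphorylate, was at -0.29 (adjusted p = 0.0576), and EIF2S2 at -0.08. No eIF2B gene passed: EIF2B1 was at -0.21, EIF2B2 at -0.09, EIF2B3 at 0.05, EIF2B4 at 0.21 and EIF2B5 at 0.10 on the log2 scale.

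Of the 7 called genes with a RefSeq window, EEF2, EIF2S3, EIF3D and EIF4B have the start tracts printed above, and EIF1, EIF5A and EIF6 have none. In the hotspot comparison on P72 the 10 genes with a tract had a median log2 fold change of -0.29, with 8 negative, and the 26 with a window and no tract had -0.09, with 20 negative. For R72 on R175H the medians were -0.18 (9 of 10 negative) and -0.07 (21 of 26 negative). EIF4B was the only called gene with a CACGTG in its window. These are descriptions, and no test was made of the tract or the E-box.

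On R273H the codon 72 form was compared with a single R72 library, whose spread the model takes from the other groups. By edgeR 0 of the 44 genes were called, where 0% of all genes tested were called, and DESeq2 also called 0 of the 44. EIF2B4 (-0.37) and EIF4EBP1 (0.50), 2 of the 44, had an unadjusted p under 0.05, as did 7.75% of all genes tested. EIF4EBP1 was at 41.3 CPM in the R273H R72 library, above the 29.4 to 32.4 CPM of the 4 R273H P72 libraries, with an SE of 0.17 and an edgeR adjusted p of 0.408. The median log2 fold change of the 44 was -0.05, with 27 negative. The median SE of the 44 was 0.13 here and 0.09 on R175H, so a change of the size seen for EEF2 on R175H was less detectable.

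Whether R72 acted differently on the 2 hotspots was tested by the interaction term. No factor gene was called by edgeR, where 0.0306% of all genes tested were called; 4 of the 44 had an unadjusted p under 0.05, as did 10.2% of all genes tested, so the share among the 44 was at the background. For EIF3G the R72 effect was 0.08 on R273H and -0.67 on R175H, a difference of 0.75 on the log2 scale (SE 0.15, edgeR adjusted p = 0.0733). For EIF4EBP1 the difference was 0.84 (SE 0.23, adjusted p = 0.186), for EIF5A 0.52 (adjusted p = 0.240) and for EIF3L 0.35 (adjusted p = 0.464). DESeq2 called EIF3G, and the edgeR fit without a filter called EIF3G and EIF4EBP1. By edgeR's main test the R72 effect is not shown to differ between the hotspots for any of the 44 genes, nor to be the same, and the contrast rests on 1 R273H R72 library.

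With R72, the hotspots were compared between the single R273H R72 library and 3 R175H R72 libraries. By edgeR 0 of the 44 genes were called, where 0.0429% of all genes tested were called, and DESeq2 called 0 of the 44. The 3 of 44 genes with an unadjusted p under 0.05 were EIF1 (-0.24), EIF2S3 (-0.28) and EIF6 (-0.32), where 4.62% of all genes tested had one. EIF6 was at 476.1 CPM in the R273H R72 library and at 709.8, 601.9 and 581.5 CPM in R175H R72, so the R273H library was under all 3. The median of the 44 was -0.06, with 35 negative. EIF3G, at 119.4 CPM in the R273H R72 library, was close to the b2 libraries of R175H R72 at 122.7 and 133.8 CPM, with a log2 fold change of -0.11 and an interval of -0.33 to 0.11.

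Several of these genes differed between batches b1 and b2 within the groups that hold both. The batch term of the same fit, which rests on 1 b1 library against 2 in R175H R72 and 1 b2 library against 3 in R273H P72, called 9 of the 44 genes (20.5%), where 9.21% of all genes tested were called, 3.6% higher and 5.61% lower. EIF3G (log2 difference of b1 over b2 0.60), EIF4E2 (0.37) and EIF3D (0.30) were higher in b1. EIF1B (-0.55), EIF4A2 (-0.49), EIF4A3 (-0.46), EEF1A1 (-0.46), EIF4H (-0.45) and EIF3M (-0.36) were lower in b1. EIF1B was at 38.4 CPM in the b1 library of R175H R72 against 54.3 and 49.9 CPM in b2, and at 25.5, 32.0 and 36.4 CPM in the b1 libraries of R273H P72 against 48.6 CPM in b2. For EIF1B every b1 library was under every b2 library.

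**Figure D4:**
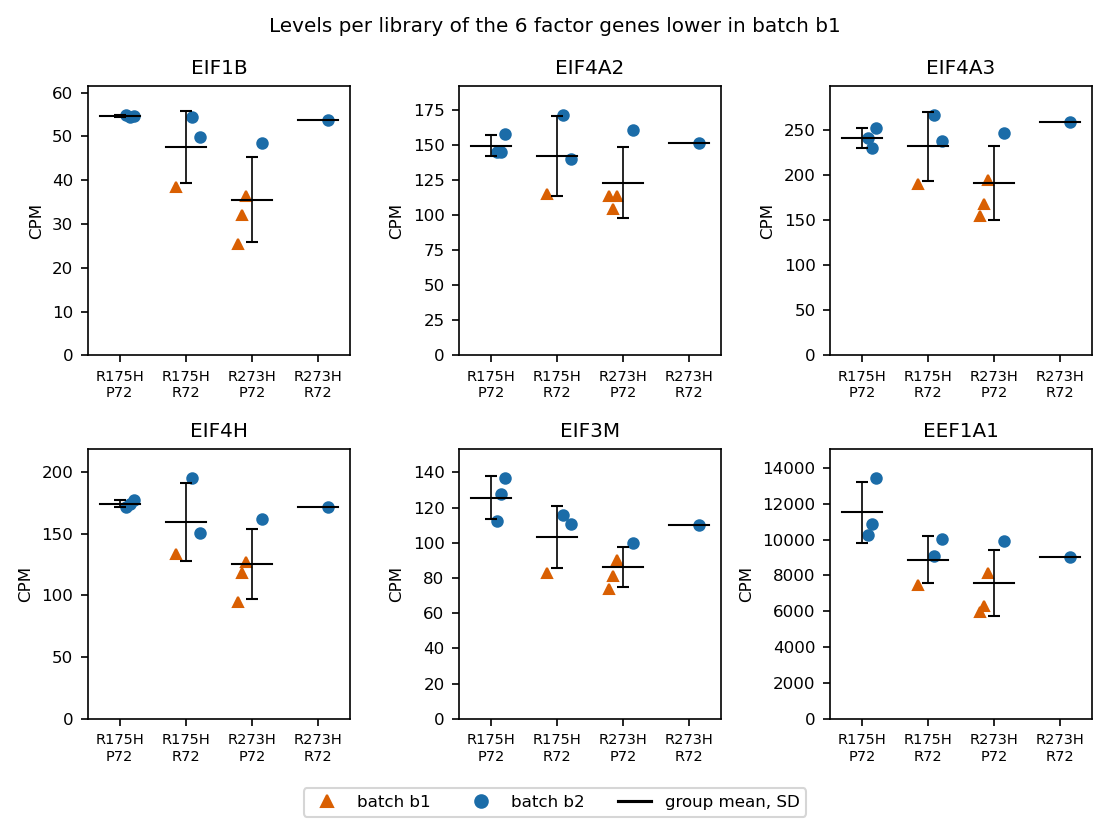
CPM (y axis, from 0) of the 6 genes lower in batch b1, in each library of the 4 groups (x axis), with triangles for b1, circles for b2, and lines for the group mean and SD. Within R175H R72 and R273H P72 each b1 library is under the b2 libraries of the same group, as for EIF1B at 25.5 to 38.4 CPM in b1 and 48.6 to 54.3 CPM in b2.

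GC content over the final 500 nt of a transcript, near which 3′ tags lie, moved with the batch term. Over the 44 genes the 2 had a Pearson r of 0.60 and a Spearman rho of 0.64, a description across genes that share the same libraries; over the tested genes with a GC value r was 0.23. EIF3G has 59.6% GC there and EIF1B 34.6%, and the median of the 44 was 46.3%, against 46.2% over all genes tested. A straight line on GC was fitted in each library to the log2 level minus the gene's mean over the libraries. Its slope per 10 percentage points ran from 0.005 to 0.026 in R175H P72 and from -0.086 to 0.072 in R175H R72. It ran from -0.056 to 0.059 in R273H P72 and was -0.081 in R273H R72. With this trend removed EIF3G stayed called on R175H (-0.56) and on P72 (-0.74), EIF5A stayed called in both (-0.56 and -0.52), and EIF4EBP1 stayed called on P72 (-0.84). What the batches differ in was not tested.

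**Figure D5:**
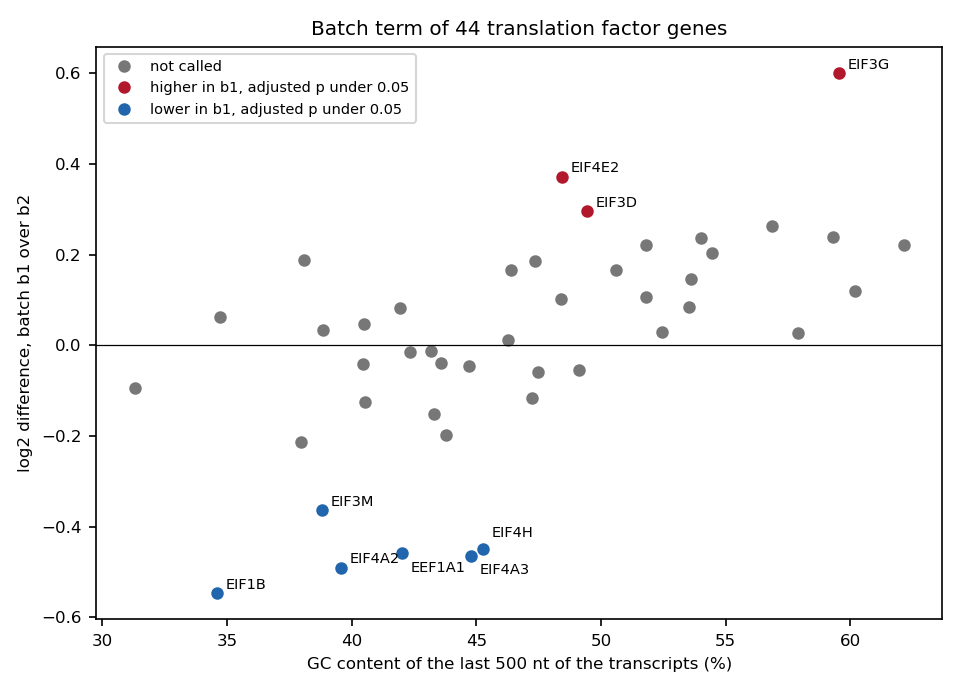
Log2 difference of batch b1 over b2 (y axis) against percent GC over the transcripts' final 500 nt (x axis), 1 point per gene for the 44 genes, with called genes marked. Genes with more GC tend to be higher in b1, with a Pearson r of 0.60, and EIF3G is highest at 0.60.

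Genes that act on these factors were followed in 7 lists. With R72 on R175H 0.815% of all genes tested were lower and 0.319% higher. Of the 9 genes for TOR and MNK signalling to eIF4E, 2 were lower with R72 on R175H and 0 higher: MLST8, a subunit of both mTOR complexes (-0.94, SE 0.16, edgeR adjusted p = 0.00342), and RPS6KB2, an S6 kinase (-0.59, SE 0.11, adjusted p = 0.00692). MLST8 was at 31.4, 34.8 and 32.3 CPM in R175H P72 and at 32.5, 12.1 and 20.3 CPM in R175H R72, where the b1 library was level with P72. Neither was called without a batch term, RPS6KB2 was not called without R175H R72 replicate 2 or with the GC correction, and the other 6 lists had 0 called.

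In the hotspot comparison on P72, 3 of the same 9 genes were lower (33.3%) and 0 higher. Over all genes tested 7.6% were lower, as were 12.6% of those with a mean of at least 10 CPM. MKNK2, a kinase that phosphorylates eIF4E, was at 167.7, 192.2 and 207.4 CPM in R175H P72 and at 108.1, 102.5, 113.6 and 125.5 CPM in R273H P72. The groups did not overlap, and the log2 fold change was -0.87 (SE 0.11, edgeR adjusted p = 6.35e-05), called under every alternative tried. RPTOR, the subunit of mTORC1 that binds 4E-BPs, was at -0.91 (adjusted p = 0.000908), lost without R273H P72 replicate 1 and without a batch term. MLST8 was at -0.80 (adjusted p = 0.00338); it was at -0.20 and not called without a batch term, and not called in batch b2 alone.

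Of the 8 genes around eIF2 phosphorylation, 3 were lower on P72 with R273H (37.5%) and 0 higher. Over all genes tested 7.6% were lower, and 12.6% of those with a mean of at least 10 CPM. PPP1R15A, the stress-induced subunit that directs phosphatase to eIF2, was at 143.3, 143.8 and 132.7 CPM in R175H P72 and at 102.1, 101.1, 113.5 and 97.3 CPM in R273H P72. Its log2 fold change was -0.45 (SE 0.10, edgeR adjusted p = 0.00387), and -0.27 with the GC correction, where it was not called. The transcription factors ATF4 (-0.39, adjusted p = 0.00987) and DDIT3 (-0.42, adjusted p = 0.0234) were not called without a batch term or in batch b2 alone. All 3 calls were lost without R273H P72 replicate 1. DDIT3 shares 355 nt of exons with MARS on the other strand, which had 30628 counts in all, against 13494 for DDIT3. The 4 eIF2 kinases (EIF2AK1 to EIF2AK4) did not pass.

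Of the 9 other elongation factors and modifiers 2 were lower on P72 with R273H (22.2%). Over all genes tested 7.6% were lower and 6.95% higher, and 12.6% of those with a mean of at least 10 CPM were lower. Counts of 1 or 2 in lists this short say little about a list. EEF1A2, a tissue-restricted paralog of EEF1A1, was at 69.0, 83.8 and 99.1 CPM in R175H P72 and at 45.2, 44.5, 45.6 and 57.9 CPM in R273H P72, with a log2 fold change of -1.21 (SE 0.27, edgeR adjusted p = 0.0220). It was not called without R175H P72 replicate 2, without R175H R72 replicate 2 or without a batch term. DPH5, an enzyme of the diphthamide that modifies eEF2, was at -0.39 (adjusted p = 0.0312). Among 11 further initiation factor genes tested of 12, EIF1AD was higher (0.65) and EIF2D (-0.40) and EIF3CL (-0.37) lower. EIF3CL is a near-identical copy of EIF3C, so its reads could be split between the pair. EIF1AD shares 98 nt of exons with BANF1 on the other strand, which had 13165 counts in all, against 1701 for EIF1AD. Each of DPH5, EIF1AD, EIF2D and EIF3CL lost its call when R273H P72 replicate 1 or any of 2 to 4 other libraries was left out. All 4 also lost it with the replicate block, as did DPH5, EIF1AD and EIF3CL without a batch term and DPH5, EIF2D and EIF3CL in batch b2 alone. PAIP2, which restrains poly(A)-binding protein, was higher (0.49, 1 of 4), as was the mitochondrial factor TSFM (0.53, 1 of 8), and both had the opposite sign without a batch term and no call without R273H P72 replicate 1. None of the 5 termination and rescue genes passed, and no gene of the 7 lists was called in the other 3 comparisons.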

How the data were processed

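The 11 libraries were single 75 bp reads of QuantSeq 3′ ends of mRNA. The authors deposited estimated counts, already whole, for each Ensembl gene. Bowtie2, RSEM 1.2.12 and DESeq2 on hg38 are named per the submitters' processing notes, without their order; strand setting and annotation are not given in the sources used here. A 3′ tag count is not divided by length, so levels were compared within a gene only.

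The 44 genes, the complexes, the 7 lists and the markers were chosen with earlier results of these data known. Groups and batches came from the labels. Genes were kept with filterByExpr (minimum count 10, minimum total 15), scaled by TMM and fitted with edgeR 4.0.16 (R 4.3.3, robust quasi-likelihood) on group and batch over all 11 libraries, with Benjamini-Hochberg adjustment over 16324 genes and a threshold of 0.05. SE is the log2 fold change over the root of F, intervals are 1.96 SE, and CPM use TMM-scaled totals, with factors from 0.979 to 1.03. Named were all 44 genes, the called ones with every library's value or their range, and up to 4 called genes per list and comparison. A further named gene is not reported here. Counts of all 12 replicate pairs differed beyond sampling noise (chi-square per degree of freedom 4.01 to 18.3). GC content came from GENCODE 29 transcripts (16029 of the tested genes), and start sites from RefSeq. Alternatives were RLE scaling, library totals, other filters, DESeq2 1.42.0, limma-voom (limma 3.58.1), no batch term, batch b2 alone, a replicate block, a GC correction (spline with 5 degrees of freedom), near copies summed (added after seeing the data) and each library left out. The fit was tested on simulated data with 200 changed genes. It found 59% of 1.5-fold and 86% of 2-fold changes for R72 on R175H, and 42% and 74% for R273H on P72. False calls were 13 of 158 and 9 of 125, so many changes of 1.5-fold or less would not be called.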

Additional observations from a re-analysis of the deposited data

Results flagged for a closer look

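In R273H P72, the only group of 4 libraries, 4 of the 44 factor genes (9.09%) had a library set apart from the other 3 by a gap that, as a share of the group's range, was above Dixon's critical value for 4 samples, where 6.11% of all genes tested did and chance gives about 1 in 20. Among the 14 list genes called in a comparison 4 more did, but these were chosen through fits that hold this library, and RPTOR, PAIP2 and TSFM lose their call without replicate 1. In 7 of these 8 it was replicate 1, the only library of this group in batch b2: EIF3G (114 CPM), EIF3I (86.6 CPM) and RPTOR (7.85 CPM) were lowest there, and EIF4A2 (160 CPM), EIF4B (311 CPM), PAIP2 (65.2 CPM) and TSFM (68.0 CPM) highest. EEF1A2 was highest in replicate 4, at 57.9 CPM. Over all genes tested, replicate 1 was the library set apart in 464 of the 997 flagged (46.5%). What sets these libraries apart was not tested, and in this group replicate 1 and batch b2 cannot be told apart.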

How the results depend on the processing

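RLE scaling, library totals, the filter at 10 CPM in 3 libraries and summed near copies left the counts of called factor genes at 3 for R72 on R175H and 11 for R273H on P72. On R175H the count was 5 with DESeq2 (EIF3B and EEF1D added) and 0 without a batch term. It ran from 2 to 5 with each library left out, with EIF3G and EIF5A called in all 11 of these fits. On P72 it was 5 in batch b2 alone (EIF3D, EIF3G, EIF3H, EIF4EBP1 and EIF5A). It ran from 7 (without R273H P72 replicate 1) to 14 (without R175H R72 replicate 4), and was 8 without R175H R72 replicate 1. Without a batch term 11 were called, of which 6 were shared with the fit that has it. With the GC correction the counts were 2 and 15, and with limma-voom 3 and 14. For the R72 effects' difference 2 were called without a filter and 1 with DESeq2. The other 2 comparisons had 0 called in all alternatives run. Over all genes the count on R175H was 185, and 564 without a filter, 333 with DESeq2, 58 with the GC correction and 6 without a batch term; on P72 it was 2376, and 866 in batch b2 alone. With no filter and with DESeq2 it was 137 and 112 for R72 on R273H (edgeR 0), 16 and 14 for the hotspots on R72 (edgeR 7), and 196 and 138 for the R72 effects' difference (edgeR 5); the other settings gave 0 to 12 there, apart from fits with a library left out, which reached 48. With each library left out it ran from 24 to 272 on R175H and from 1214 to 2463 on P72. Without a batch term 2 log2 fold changes on P72 reversed, PAIP2 (-0.13) and TSFM (-0.17); the cause was not tested. The table has 0 rows for numbered pseudogenes of these genes, so that planned sum was not run. The R273H R72 comparisons are limited by their single library.

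With the replicate number as a block the counts were 2 on R175H (EEF2 lost) and 10 on P72 (EIF2S3 lost), over all genes 81 and 1776, and with the GC correction added 2 (EEF2 lost) and 10 (EIF6 lost, EIF2S3 kept), over all genes 39 and 1502. The numbers were not taken to pair the libraries, since the deviations of same-numbered libraries correlated at -0.0035 to 0.146 in the 3 R175H pairs, at -0.05 to 0.124 in the 3 P72 pairs and at -0.253 to 0.146 over all 9, with 3 above 0.1.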
